A study of Mus musculus with 14 samples.

Results

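Glucocorticoid-induced genes were followed one library at a time in the hippocampus of mice exposed to intermittent hypoxia (IH), to sustained hypoxia (SH) or to room air, as a transcript readout of stress hormone. The genes were chosen by name: Fkbp5, Sgk1, Tsc22d3, Zbtb16, Pdk4, Errfi1, Sult1a1, Cdkn1a, Nfkbia and the receptor gene Nr3c1. Of these 10 genes, 8 were in the table of 7756 genes and all 8 were among the 7338 genes tested, while Fkbp5 and Zbtb16 were not analysed here. No hormone was measured in the files, so the values are RNA levels of target genes and not of corticosterone.

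The study asked how reoxygenation between hypoxic periods affects the hippocampus in a model of sleep apnea. All mice were wild-type male C57BL/6J mice aged 8 weeks, and each group was kept for 28 days. The IH group (5 libraries) breathed 10% and 21% oxygen in alternation, in cycles of 2 min for 8 h per day, the SH group (5 libraries) breathed 10% oxygen for 8 h per day and 21% for the rest, and the control group (4 libraries) stayed at 21%. Mice of the study went through a Y-maze test and a passive avoidance test with an electric shock before the hippocampi were taken, but the 4 control libraries came from a preliminary experiment, for which the methods do not say whether these tests were run, so that for every comparison with control the experiment and the exposure cannot be told apart. Both of these comparisons share the same 4 control libraries, whereas IH and SH came from the main experiment.

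Glucocorticoids (corticosterone in the mouse) bind the glucocorticoid receptor, a transcription factor that chaperones hold in the cytoplasm until the hormone arrives. The bound receptor enters the nucleus and binds glucocorticoid response elements, short palindromes near its target genes, and the targets include inhibitors of inflammation, of growth factor signaling and of glucose oxidation. The hippocampus is rich in this receptor and in the mineralocorticoid receptor, and is known as a site of feedback on the stress axis.

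The response element was searched as the letters GNACA, any 3 bases and the letters TGTNC, a pattern that reads the same on both strands, within 3000 bases before every annotated protein-coding start (GRCm39, GENCODE annotation). Of all 7621 genes with such a window, 527 (6.92%) held a match. Among the 8 members it was found in Sgk1 and Cdkn1a only, and no match to these letters was in the windows of the other 6, among them Tsc22d3 with 14 annotated starts and Errfi1 with 4. Among 20 other glucocorticoid-induced genes of the table, a list described further on, 10 held a match. The matches of the 2 members and of 3 listed genes are printed here because they are the letters the receptor is known to read, with the match in capitals. All 6 windows are given on the strand of their gene, which is the plus strand except for Bcl6. The Sgk1 match (chr10:21869587-21869627) lay 188 bases before a start inside an intron of the longer Sgk1 transcripts, and the Cdkn1a match (chr17:29313660-29313700) lay 77 bases before a start, also inside an intron of a longer transcript. The matches of Per1 (chr11:68987889-68987929 and chr11:68990229-68990269) were 1365 and 741 bases, that of Map3k6 (chr4:132967934-132967974) was 148 bases and that of Bcl6 (chr16:23808751-23808791, minus strand) was 1175 bases before the nearest start. A match is a description of sequence and not a measured binding site.
Sgk1: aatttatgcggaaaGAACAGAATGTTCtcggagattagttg
Cdkn1a: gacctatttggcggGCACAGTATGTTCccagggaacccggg
Per1, first match: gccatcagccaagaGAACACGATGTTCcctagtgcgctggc
Per1, second match: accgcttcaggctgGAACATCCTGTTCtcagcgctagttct
Map3k6: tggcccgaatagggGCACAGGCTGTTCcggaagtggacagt
Bcl6: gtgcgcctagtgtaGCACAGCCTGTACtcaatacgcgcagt

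Counts per library summed to between 7203659 and 11777101 over the genes of the table and did not differ between groups beyond the spread of the libraries (exact permutation tests, 2-sided, p = 0.190 for IH against control, 0.262 for SH against control and 0.944 for IH against SH, where the smallest possible p is 0.00794). Defining markers of hippocampal neurons were present in every library, with a summed level of 49429 to 60669 normalized counts over 9 markers. Choroid plexus tissue was unequal: the summed level of its 10 markers, none of which was at 0, was at least 30313 in 6 libraries (control 4, IH 1, IH 4, SH 1, SH 2 and SH 5) and at most 11267 in the other 8. These 6 were 1 library of control, 2 of IH and 3 of SH. No choroid plexus marker passed the test in any comparison, but the spread within groups was wide, with Ttr at 264 to 77671 within control. The test therefore cannot show that the groups held equal amounts of this tissue. The log2 level of a gene relative to its mean over libraries also followed GC content and transcript length unequally. Per 10 percentage points of GC it changed by 0.0197 to 0.219 in the control libraries, -0.0525 to 0.0068 in IH and -0.165 to 0.0514 in SH. Per doubling of length it changed by -0.0569 to -0.00228 in control and 0.0108 to 0.0227 in SH. In IH this was 0.0179 to 0.0363 except in IH 3, at -0.0871. The table holds protein-coding genes that the authors kept because their processed signal differed from control, so all shares below hold only within that selection.

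In short, the members did not move as a block. Tsc22d3 rose in IH and Errfi1 rose in SH, while Sgk1, Pdk4, Sult1a1, Cdkn1a, Nfkbia and Nr3c1 did not pass the test against control in either group. The test throughout is edgeR's quasi-likelihood test in one fit of the 3 groups, with Benjamini-Hochberg adjustment over the 7338 genes, and a gene is called when its adjusted p is under 0.05. In IH against control, 1 of the 8 members was called, beside 10.9% of all genes tested (6.08% higher and 4.85% lower). In SH against control 1 of 8 was called, beside 20.6% (10.2% higher and 10.5% lower), and in IH against SH 1 of 8, beside 2.37% (1.47% higher and 0.899% lower). All 3 calls were higher in the group named first. With 8 genes, 1 call in each comparison is near the background for the first 2 comparisons. Over the 8 members the log2 fold changes had a median of 0.14 in IH and 0.13 in SH, against -0.02 and 0.00 over all genes tested.

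**Figure D1:**
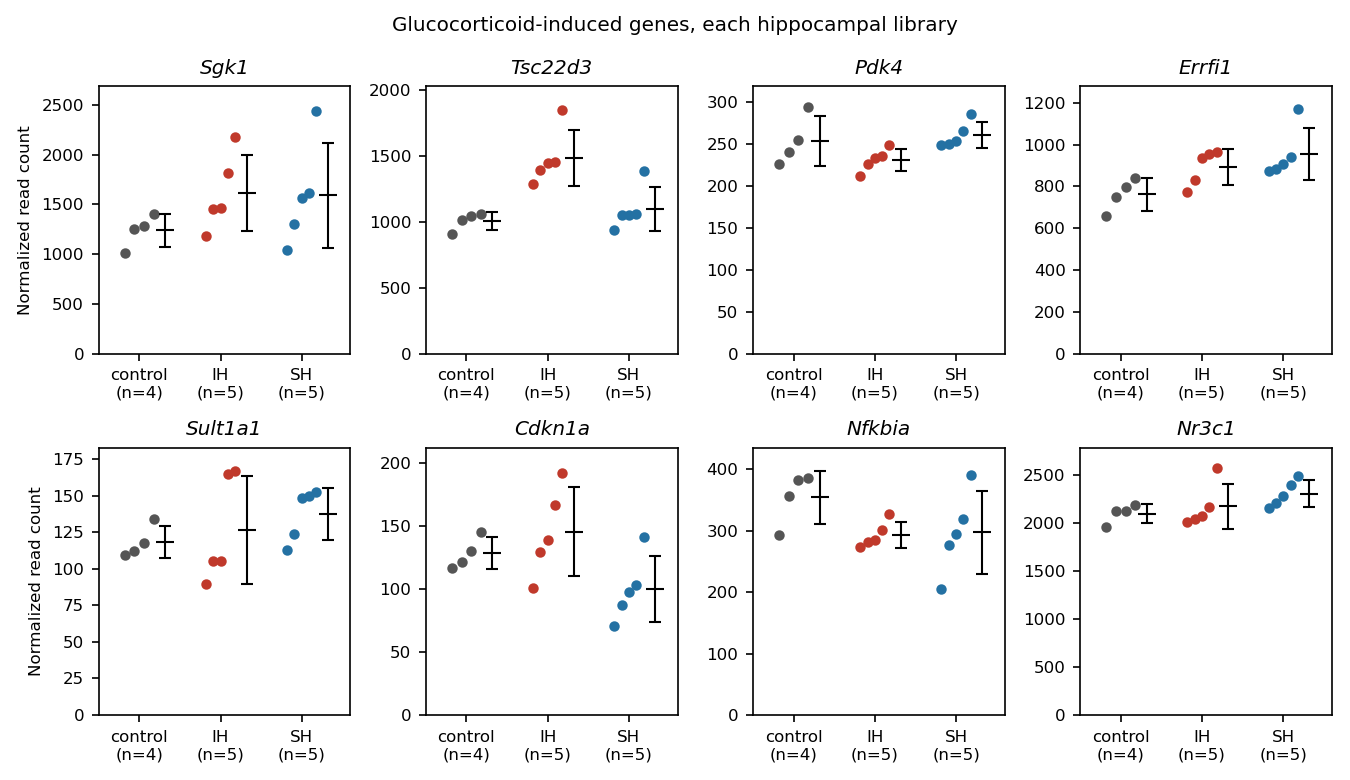
Normalized read count of the 8 glucocorticoid-induced genes in each hippocampal library (points, sorted by value within each group) for control (n = 4), IH (n = 5) and SH (n = 5), with the mean and SD as bars and each vertical axis starting at 0. All 5 IH points of Tsc22d3 lie above the control points, and all 5 SH points of Errfi1 lie above the control points, whereas the groups overlap with control for the other genes.

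Nr3c1 encodes the glucocorticoid receptor itself, whose own transcription falls under sustained hormone in many tissues. Its normalized counts were 1961, 2124, 2189 and 2127 in the control libraries, 2014, 2075, 2042, 2170 and 2576 in IH, and 2215, 2396, 2154, 2281 and 2496 in SH. IH overlapped with control except for one high library, IH 5, and 4 of the 5 SH libraries were above the highest control library. The log2 fold change was 0.05 in IH (SE 0.07, adjusted p = 0.667) and 0.14 in SH (SE 0.07, adjusted p = 0.197), with 95% intervals of -0.09 to 0.20 and -0.01 to 0.28. The direction was not settled in either group: once trends with GC content and transcript length were taken out, the log2 fold change turned to -0.10 in IH and -0.04 in SH (edgeR adjusted p = 0.427 and 0.788).

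Tsc22d3 (chrX:139440091-139501408, minus strand) encodes GILZ, a leucine zipper protein that carries part of the anti-inflammatory action of glucocorticoids. In the control libraries, normalized counts were 907, 1013, 1058 and 1041, against 1447, 1291, 1852, 1454 and 1396 in IH, and 1052, 1387, 937, 1063 and 1051 in SH. Every IH library was above every control library, and 4 of the 5 SH libraries lay between 937 and 1063, in or close to the control range, with SH 2 apart from them at 1387. Tsc22d3 rose 1.48-fold in IH, from 1005 ± 67.8 (SD, n = 4) to 1488 ± 214 (SD, n = 5), a log2 fold change of 0.57 (SE 0.11, 95% interval 0.34 to 0.79, edgeR adjusted p = 0.00733). In SH its mean was 1098 ± 170 (SD, n = 5), a log2 fold change of 0.13 (SE 0.11, 95% interval -0.10 to 0.35, adjusted p = 0.446), which ran from 0.029 (without SH 2) to 0.18 without any 1 library. Of the 8 members it alone did not overlap between IH and control, where 15.1% of all genes tested did not overlap.

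The difference between IH and SH was itself past the threshold for Tsc22d3, with a log2 fold change of 0.44 (SE 0.11, edgeR adjusted p = 0.0417), and 4 of the 5 IH libraries were above every SH library. The call against control held under all 24 other ways of processing, with log2 fold changes of 0.47 to 0.65 and an adjusted p of at most 0.0292. In the 8 libraries with few choroid plexus transcripts, a choice made after the data were seen, the log2 fold change was as large, at 0.61, with an adjusted p of 0.0799, and 0.61 also between IH and SH, with an adjusted p of 0.364. The call between IH and SH held under only 7 of these 24 and was lost when any one of control 1 to 4, IH 1, IH 3, IH 4, IH 5, SH 1, SH 3, SH 4 or SH 5 was left out, with adjusted p-values of 0.0504 to 0.108. It was also lost with the replicate block (adjusted p = 0.0665), with only the 2 groups in the fit (0.0989), with GC content and length trends taken out (0.0743), with both block and trend removal (0.0879) and under the study's processing with limma (0.0618). Without SH 2, the adjusted p was 0.0138.

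Levels of hemoglobin and erythroid genes moved with the same groups. Their summed level over 5 genes, none at 0, was 2926 to 3189 in control, 1649 to 2304 in IH and 2203 to 3081 in SH, and 4 of the 4 tested (Hbb-bs, Hbb-bt, Hba-a1 and Hba-a2, near-identical copies within each pair) were lower in IH, beside 4.85% of all genes tested. Of 9 oligodendrocyte markers 1, Ermn, was higher in both hypoxia groups, near the 6.08% and 10.2% of all genes, and their sum reached 199230 in IH 5 against 75922 to 112290 in control. The 2 astrocyte markers in the table summed to 9027 to 11286 in control and 9487 to 12147 in IH. Of 13 endothelial and mural markers 1, Ly6c1, was higher in IH (log2 fold change 0.46, edgeR adjusted p = 0.0270), near the 6.08% of all genes. It did not overlap with control, as 15.1% of all genes did not, and was highest in IH 3 as Tsc22d3 was. Of the 13, 9 had a positive log2 fold change in IH and 4 a negative one, lowest for Pdgfrb and Cldn5 at -0.28 each. Their sum was 10394 to 11671 in control and 11270 to 11695 in IH, with 11425 in IH 3. Another of these markers, Slco1a4, was lower in IH than in SH (-0.40, edgeR adjusted p = 0.00444), beside 0.899% of all genes. It did not overlap between these 2 groups, beside 4.46%. Of 9 markers of hippocampal neurons 1, Prox1, which marks granule cells of the dentate gyrus, was higher in both groups, near the 6.08% and 10.2% of all genes. It rose 1.58-fold in IH (edgeR adjusted p = 0.0169) and 1.75-fold in SH (edgeR adjusted p = 0.00387). Another 1 of the 9, Slc17a7, the vesicular glutamate transporter of excitatory neurons, was lower in SH, near the 10.5% of all genes. It fell by 0.26 on the log2 scale in SH (edgeR adjusted p = 0.0215) and was at -0.23 in IH (edgeR adjusted p = 0.0542). No other marker of the 9 was called in either group. Neither gene overlapped with control in either group, beside 15.1% of all genes in IH and 19.4% in SH. The part of blood or cell composition in the Tsc22d3 result was not tested, and in bulk tissue a different number of cells cannot be told apart from a different amount of RNA per cell.

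Errfi1 (chr4:150938376-150955402, plus strand) encodes MIG6, a feedback inhibitor of the epidermal growth factor receptor. Normalized counts stood at 656, 798, 751 and 841 in the control libraries, 828.7, 774, 955, 964 and 937 in IH, and 874, 906, 885, 1171 and 941 in SH. All 5 SH libraries were above the highest control library, IH overlapped with control through IH 1 and IH 2, and SH 4 was far above the rest of its group. Errfi1 rose 1.25-fold in SH, from 761 ± 79.3 (SD, n = 4) to 955 ± 123 (SD, n = 5), a log2 fold change of 0.33 (SE 0.10, 95% interval 0.13 to 0.53, edgeR adjusted p = 0.0355). In IH the mean was 892 ± 85.5 (SD, n = 5), a log2 fold change of 0.23 (SE 0.10, unadjusted p = 0.0404, edgeR adjusted p = 0.148), and IH and SH did not differ by the test (log2 fold change -0.10, 95% interval -0.29 to 0.09, adjusted p = 0.713). Of the 8 members it alone did not overlap between SH and control, beside 19.4% of all genes tested.

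The Errfi1 call in SH depended on single libraries and on the way of processing. It was lost without control 1 (adjusted p = 0.118), control 2 (0.0599), control 3 (0.0679), SH 4 (0.0829) or SH 5 (0.0541), with only the 2 groups in the fit (0.0526), under the study's processing with limma (0.0667), and with trends of GC content and transcript length taken out (log2 fold change 0.25, adjusted p = 0.161). Its size fell to 0.26 without control 1 and to 0.24 without SH 4. In the other 5 of these it stayed at 0.31 to 0.35. In the 8 libraries with few choroid plexus transcripts it was 0.47 (adjusted p = 0.125). Endothelial and mural markers stood beside it, with 3 of 13 (Abcb1a, Flt1 and Slco1a4) higher in SH beside 10.2% of all genes tested, and none at 0. Of the 13, 9 had a positive log2 fold change in SH and 4 a negative one, lowest for Cldn5 at -0.27 (edgeR adjusted p = 0.166). Their summed level was 10394 to 11671 in control and 11622 to 13506 in SH. Of 3 microglial markers, 2 (Csf1r and C1qa) were lower in SH beside 10.5%. Prox1 and Slc17a7 also differed from control in SH, as given above. The part of these cells in the Errfi1 result was not tested.

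**Figure D2:**
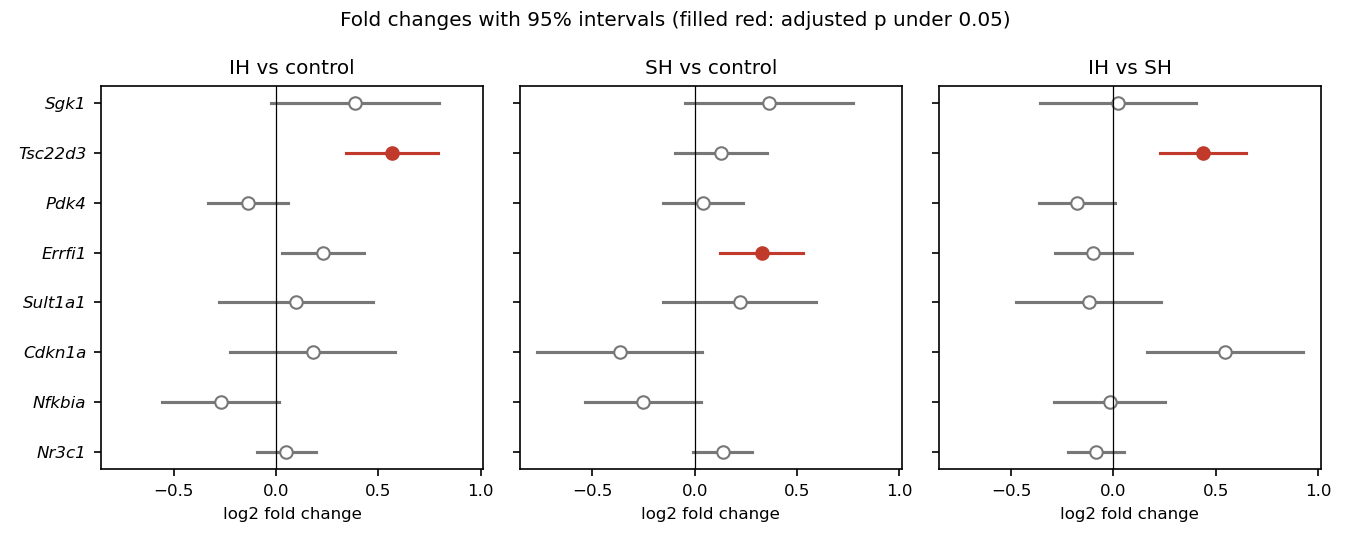
Log2 fold change with its 95% interval for the 8 members in IH against control, SH against control and IH against SH (filled red, adjusted p under 0.05). Tsc22d3 is filled in the first and the last panel, at 0.57 and 0.44, and Errfi1 in the middle one, at 0.33.

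Sgk1 (chr10:21758083-21875802, plus strand) encodes a kinase named for its induction by serum and glucocorticoids, which acts on ion channels and transporters. Its normalized counts were 1013, 1255, 1284 and 1400 in the control libraries, 1456, 1186, 1812, 2175 and 1463 in IH, and 1617, 1562, 1040, 2444 and 1304 in SH. In IH 4 of 5 libraries and in SH 3 of 5 were above the highest control library, but IH 2 lay below the control mean and SH ran from within the control range to the highest value of all. The means were 1238 ± 163 (SD, n = 4), 1618 ± 382 (SD, n = 5) and 1593 ± 528 (SD, n = 5). The log2 fold change was 0.39 in IH (SE 0.21, 95% interval -0.02 to 0.80, edgeR adjusted p = 0.222) and 0.36 in SH (SE 0.21, 95% interval -0.05 to 0.77, edgeR adjusted p = 0.223), so a rise of up to these upper bounds could not be told from none. Leaving out 1 library gave 0.26 to 0.48 in IH and 0.16 (without SH 4) to 0.48 in SH.

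Cdkn1a (chr17:29309936-29319701, plus strand) encodes p21, an inhibitor of cyclin-dependent kinases that p53 also induces. In the control libraries, normalized counts were 116, 130, 146 and 122, against 139, 101, 167, 193 and 129 in IH, and 87.4, 103, 70.5, 141 and 97.5 in SH. In SH, 4 libraries were below the lowest control library and IH spread to both sides of control, with IH 2 lowest and IH 4 highest. The log2 fold change was 0.18 in IH (SE 0.20, edgeR adjusted p = 0.572), -0.37 in SH (SE 0.21, edgeR adjusted p = 0.214) and 0.55 in IH against SH (SE 0.20, unadjusted p = 0.0133, edgeR adjusted p = 0.173), which failed the correction with 5 of 5 IH libraries above the SH mean. Leaving out 1 library gave 0.064 (without IH 4) to 0.28 in IH and -0.52 to -0.27 in SH.

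Nfkbia (chr12:55535332-55539432, minus strand) encodes IκBα, which retains NF-κB in the cytoplasm and is induced by NF-κB as well as by glucocorticoids. Normalized counts stood at 292, 356, 382 and 385 in the control libraries, 273, 300, 285, 327 and 282 in IH, and 277, 294, 205, 391 and 319 in SH. Apart from control 1, the control libraries were above every IH library, while SH reached from the lowest to the highest value of all 14 libraries. The log2 fold change was -0.27 in IH (SE 0.14, edgeR adjusted p = 0.219) and -0.25 in SH (SE 0.14, edgeR adjusted p = 0.224), and the latter ran from -0.37 to -0.15 without any 1 library.

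Pdk4 (chr6:5483097-5496339, minus strand) encodes a kinase that switches off pyruvate dehydrogenase and so spares glucose. Its normalized counts were 255, 240, 225 and 294 in the control libraries, 233, 248, 235, 212 and 226 in IH, and 286, 265, 249, 254 and 249 in SH. All IH libraries were below all SH libraries, the closest pair being IH 2 at 248.0 and SH 5 at 248.7, and control overlapped with both. The log2 fold change between IH and SH was -0.18 (SE 0.09, unadjusted p = 0.0807, edgeR adjusted p = 0.403), and against control it was -0.13 in IH (edgeR adjusted p = 0.370) and 0.04 in SH (edgeR adjusted p = 0.797). Without any 1 library the value in IH ran from -0.19 (without control 3) to -0.056 (without control 4). Pdk4 was the 1 member of 8 without overlap between IH and SH, beside 4.46% of all genes tested.

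Sult1a1 (chr7:126271299-126275615, minus strand) encodes a sulfotransferase of phenols and catechols. In the control libraries, normalized counts were 109, 118, 112 and 134, against 165, 106, 89.5, 167 and 106 in IH, and 153, 113, 124, 150 and 149 in SH. The high values fell on libraries rich in choroid plexus markers in each group, namely control 4, IH 1, IH 4, SH 1 and SH 5, whereas SH 2 was low despite such markers and SH 4 was high without them. The log2 fold change was 0.10 in IH (SE 0.19, edgeR adjusted p = 0.753) and 0.22 in SH (SE 0.19, edgeR adjusted p = 0.434), and that in IH turned to -0.17 in the 8 libraries with few choroid plexus transcripts. The part of that tissue in the level of Sult1a1 was not tested.

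Per kilobase of the longest protein-coding transcript, the mean level fell in the same order in all 3 groups: Sgk1, Tsc22d3, Nr3c1, Nfkbia, Errfi1, Sult1a1, Pdk4, Cdkn1a. In control the level ran from 399 normalized counts per kilobase for Sgk1 and 339 for Tsc22d3 down to 31.4 for Cdkn1a. In IH, Tsc22d3 (501 per kilobase) came close to Sgk1 (521), while in SH it (370) was close to Nr3c1 (356). The spreads of Sgk1 and Tsc22d3 overlapped in control and in IH, so this order was not tested as a difference. Antisense transcripts overlap Cdkn1a, Errfi1, Nfkbia, Nr3c1 and Sgk1, and the gene Sgf29 overlaps Sult1a1 on the other strand. The library kit marks the strand but the setting used for counting was not given, so reads of such partners may be included.

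The members also varied between libraries of the same group. Deviations from the group mean on the log2 scale were correlated over the 14 libraries for each of the 28 pairs of members, with group means removed. Sgk1 and Cdkn1a varied together (r = 0.90, permutation test within groups, 2-sided, p = 6.4e-04, adjusted over the 28 pairs 0.0179), with rho = 0.75 (permutation p = 0.0120, adjusted 0.0746), and r was 0.45 within control, 0.99 within IH and 0.92 within SH. Sgk1 and Errfi1 followed (r = 0.81, permutation p = 0.00186, adjusted 0.0260), with rho = 0.75 (permutation p = 0.00550, adjusted 0.0746). Leaving out the 2 libraries farthest from the median of Sgk1 gave r = 0.81 and 0.73. These were the 2 pairs past the threshold by r, whereas 0 of 28 passed by rho, where 7 had an unadjusted p under 0.05. Sgk1 with Nfkbia (r = 0.77), Errfi1 with Cdkn1a (r = 0.74) and Cdkn1a with Nfkbia (r = 0.71) had an adjusted permutation p of 0.0570 each. All points share library and depth, the number of pairs past the threshold was 0 without control 1, without IH 4 or without SH 4, 1 without IH 1 and 5 without IH 2, and Tsc22d3 was in none of the pairs past it. For Sgk1 with Cdkn1a, r stayed at 0.91, 0.88 and 0.85 without control 1, IH 4 and SH 4 (adjusted permutation p = 0.0518, 0.0567 and 0.0756). In the same order it was 0.80, 0.81 and 0.68 for Sgk1 with Errfi1.

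The extremes of several members fell on the same libraries. SH 4 had the highest count of its group for Sgk1, Errfi1, Cdkn1a and Nfkbia, and SH 3 the lowest for Sgk1, Tsc22d3, Cdkn1a, Nfkbia and Nr3c1. IH 4 was highest in IH for Sgk1, Errfi1, Sult1a1, Cdkn1a and Nfkbia, and IH 2 lowest for Sgk1, Tsc22d3, Errfi1 and Cdkn1a. In the control group, control 1 was lowest for 7 of the 8 members, the exception being Pdk4. The genes whose deviations were most like those of Sgk1 over the 14 libraries, members left out, were Lfng (r = 0.87), Minpp1 (0.83), Gca (0.80), Zfp524 (0.80) and Aaas (0.78), a description without a test.

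**Figure D3:**
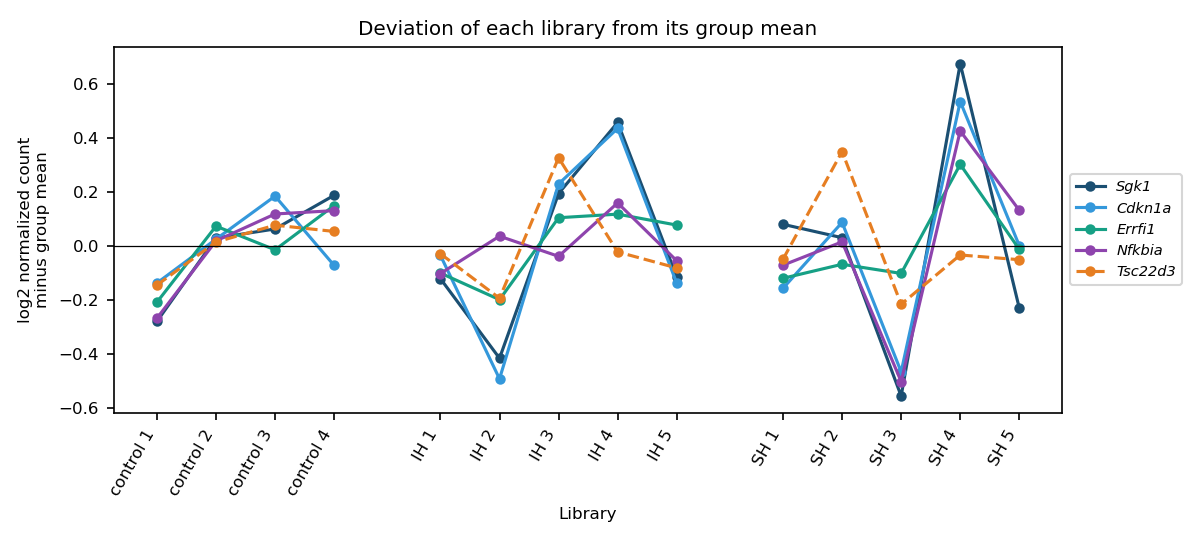
Deviation of each library from its group mean (log2 normalized count) for Sgk1, Cdkn1a, Errfi1, Nfkbia and Tsc22d3 in the 4 control, 5 IH and 5 SH libraries. Sgk1, Cdkn1a, Errfi1 and Nfkbia peak together in SH 4, and within SH the values of Sgk1, Cdkn1a and Nfkbia are lowest together in SH 3, whereas Tsc22d3 (dashed) peaks in IH 3 and SH 2.

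A wider list of 25 other genes known to be induced by glucocorticoids had 20 genes in the table, all tested. In IH against control 3 were higher and 2 lower, so 5 of 20 were called beside 10.9% of all genes tested, and the median of the list was 0.13 on the log2 scale. In SH against control 5 were higher and 4 lower, so 9 of 20 beside 20.6%, at a median of -0.06, and in IH against SH 1 was higher, beside 2.37%. Targets of the same hormone thus stood on both sides of control within 1 list.

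**Figure D4:**
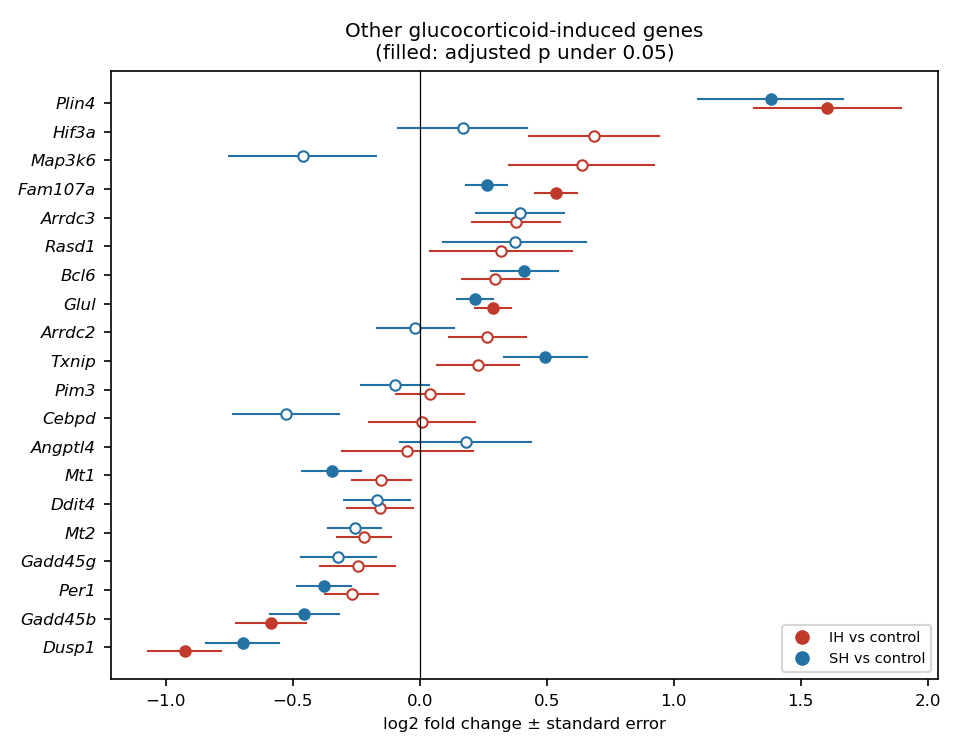
Log2 fold change with its standard error of the 20 other glucocorticoid-induced genes in IH (red) and SH (blue) against the shared control, filled where the adjusted p is under 0.05. Plin4 lies farthest to the right, at 1.61 and 1.38, and Dusp1 farthest to the left, at -0.93 and -0.70.

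Plin4, a coat protein of lipid droplets, moved most. Normalized counts stood at 95.5, 61.8, 65.8 and 96.8 in control, 288, 130, 372, 184 and 242 in IH, and 245, 133, 180, 276 and 208 in SH. Every library of both hypoxia groups was above every control library, with IH 2 and SH 2 the lowest of their groups. Plin4 rose 3.04-fold in IH (log2 fold change 1.61, SE 0.29, edgeR adjusted p = 0.00373) and 2.61-fold in SH (1.38, SE 0.29, edgeR adjusted p = 0.00510).

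Fam107a, a stress-induced actin-binding protein also called DRR1, holds the response element letters GGACATGGTGTTC 87 bases before a start. Its normalized counts were 7086, 7475, 8049 and 8020 in control, 11742, 10141, 13230, 10191 and 10257 in IH, and 8938, 9803, 8474, 9621 and 9110 in SH. The 3 groups did not overlap at all, with SH between control and IH. Fam107a rose 1.45-fold in IH (log2 fold change 0.54, SE 0.08, edgeR adjusted p = 0.00137) and 1.20-fold in SH (0.26, SE 0.08, edgeR adjusted p = 0.0345), and IH against SH was 0.27 (SE 0.08, edgeR adjusted p = 0.0804).

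Glul, the glutamine synthetase of astrocytes, rose by a log2 fold change of 0.29 in IH (edgeR adjusted p = 0.0180) and 0.22 in SH (edgeR adjusted p = 0.0410), and holds GAACAGGCTGTTC 2825 bases before a start. In control, normalized counts were 27796 to 29893, against 33261 to 37884 in IH and 30838 to 37400 in SH, without overlap with control. In SH, Txnip, the thioredoxin-interacting protein, rose by 0.49 (edgeR adjusted p = 0.0428) and Bcl6, a transcriptional repressor, by 0.41 (edgeR adjusted p = 0.0394). In IH these 2 genes had log2 fold changes of 0.23 and 0.30 (edgeR adjusted p = 0.346 and 0.147).

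Dusp1, a phosphatase of MAP kinases that neuronal activity also induces within minutes, went the other way. Normalized counts stood at 403, 574, 569 and 563 in control, 323, 232, 239, 242 and 348 in IH, and 367, 284, 355, 302 and 316 in SH. All hypoxia libraries were below all control libraries, of which control 1 was far lower than the other three. Dusp1 fell by 0.93 on the log2 scale in IH (SE 0.14, edgeR adjusted p = 0.00139) and by 0.70 in SH (SE 0.14, edgeR adjusted p = 0.00465), and it holds GTACAGTTTGTCC 967 bases before a start. Gadd45b, a stress sensor that activity induces too, fell by 0.59 in IH (edgeR adjusted p = 0.0141) and by 0.45 in SH (edgeR adjusted p = 0.0295). Per1, a core clock gene with a daily rhythm, fell by 0.38 in SH (edgeR adjusted p = 0.0211) and was at -0.27 in IH (edgeR adjusted p = 0.104), and Mt1, a metal-binding metallothionein, fell by 0.35 in SH (edgeR adjusted p = 0.0454).

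Map3k6, a stress-activated kinase, was higher in IH than in SH by 1.10 on the log2 scale (SE 0.27, edgeR adjusted p = 0.0464). Its normalized counts were 125, 91.2, 167, 111 and 76.6 in IH and 48.0, 95.3, 42.5, 41.2 and 38.3 in SH. Control ran from 59.7 to 96.6 and overlapped with both, with a mean of 73.3 between those of IH (114) and SH (53.1). Only SH 2 reached into the IH range. The call held under 6 of 23 other ways of processing. Of the 14 libraries left out in turn, it was kept without IH 5 or SH 2 (adjusted p = 0.0112 without SH 2) and lost without each of the other 12, with adjusted p-values of 0.0557 to 0.113.

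The calls of Plin4, Dusp1 and, in IH, Fam107a held under all 24 ways of processing, and their log2 fold changes in the 8 libraries with few choroid plexus transcripts were 1.73 and 1.60 for Plin4, -0.91 and -0.66 for Dusp1 and 0.57 for Fam107a in IH, with adjusted p-values of 0.0650 to 0.133. Glul in IH was lost without control 1 or 2 (adjusted p = 0.0623 and 0.0575), Gadd45b in IH without control 4 (0.0511) and Per1 in SH without control 4 (0.0701). In SH, Fam107a was lost without control 1, control 2, SH 2, SH 4 or SH 5 (up to 0.107), Gadd45b without control 2, 3, 4 or SH 5 (up to 0.101), and Bcl6 without control 1, 2, 3, SH 4 or SH 5 (up to 0.123). Txnip in SH was lost without control 1, 2, 3, SH 1, 2, 4 or 5 (up to 0.118), Glul in SH without control 1 to 4, IH 2, SH 4 or SH 5 (up to 0.114) and Mt1 in SH without control 1 to 4, IH 4 or any 1 of the 5 SH libraries (up to 0.102). With trends of GC content and transcript length taken out, Gadd45b was not called in IH (log2 fold change -0.43, edgeR adjusted p = 0.102) or in SH (-0.23, edgeR adjusted p = 0.380), and with the replicate block the calls in SH of Gadd45b (adjusted p = 0.0561) and Glul (0.0580) were lost. A further 6 calls of the list against control, all in SH, were lost when these trends were taken out. Of these 6, the log2 fold changes of 4 stayed close to those above, at 0.27 for Fam107a, 0.42 for Bcl6, 0.47 for Txnip and 0.21 for Glul (edgeR adjusted p = 0.0684, 0.0669, 0.0947 and 0.0848), whereas those of Mt1 and Per1 were smaller, at -0.21 and -0.31 (edgeR adjusted p = 0.256 and 0.0673). The call of Map3k6 between IH and SH was also lost with the trends taken out (1.04, edgeR adjusted p = 0.0740). Under scaling by the 80th percentile the calls in SH of Bcl6 (0.0506), Txnip (0.0525) and Glul (0.0635) were lost, and with only the 2 groups in the fit those of Bcl6 (0.0521) and Glul (0.0707). Under the study's processing with limma, Bcl6, Txnip, Glul, Fam107a and Mt1 were lost in SH (adjusted p = 0.0667 to 0.0904). Mt1 was also lost under scaling by library total (0.0513) and with no filter (0.0503).

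Of 22 genes of the receptor and its machinery 6 were in the table, of which 2 were called in IH and 2 in SH, beside 10.9% and 20.6% of all genes tested. In IH, Stip1, the co-chaperone that hands the receptor from HSP70 to HSP90, rose by a log2 fold change of 0.37 (edgeR adjusted p = 0.0108), and Bag1, a co-chaperone of HSP70 that binds the receptor, fell by 0.36 (edgeR adjusted p = 0.0107). In SH, Bag1 fell by 0.27 (edgeR adjusted p = 0.0252, lost without control 1, 2 or 3, up to 0.0638), and Abcb1a, the P-glycoprotein of brain vessels that exports glucocorticoids and is 1 of the endothelial markers above, rose by 0.36 (edgeR adjusted p = 0.0101). With trends of GC content and transcript length taken out, Bag1 was at -0.32 in IH (edgeR adjusted p = 0.0526) and -0.22 in SH (edgeR adjusted p = 0.161), and Abcb1a was at 0.25 in SH (edgeR adjusted p = 0.0957), none of them called. Nr3c2, the mineralocorticoid receptor, named here after its values were seen, was not called, with log2 fold changes of -0.13 in IH and 0.03 in SH (edgeR adjusted p = 0.465 and 0.889). No gene of this list was called between IH and SH, where 2 of 6 had an unadjusted p under 0.05, beside 15.8% of all genes tested.

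Since Cdkn1a answers to p53 and Nfkbia to NF-κB, the genes of those pathways were read as well, in lists that count the 2 members themselves. Of 14 p53 targets 8 were in the table, Cdkn1a among them, and 1 was lower in IH, while 1 was higher and 2 lower in SH, so 1 and 3 of 8 were called beside 10.9% and 20.6% of all genes tested. Btg2, an antiproliferative gene that activity also induces, fell by 1.04 on the log2 scale in IH (SE 0.14, edgeR adjusted p = 6.25e-04) and by 1.08 in SH (SE 0.14, edgeR adjusted p = 3.72e-04), from 427 to 763 normalized counts in control to 256 to 359 in IH and 265 to 322 in SH. In SH, Bbc3, the cell death gene PUMA, fell by 0.57 (edgeR adjusted p = 0.00813) and Sesn1, a sestrin, rose by 0.39 (edgeR adjusted p = 0.0284, lost without control 1, control 4, SH 4 or SH 5, up to 0.0974). Both calls were lost with GC content and length trends taken out, at -0.27 for Bbc3 (edgeR adjusted p = 0.210) and 0.36 for Sesn1 (edgeR adjusted p = 0.0775).

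Of 16 NF-κB genes 8 were tested, Nfkbia among them, of which 1 was called in IH and 2 in SH, beside 10.9% and 20.6% of all genes tested. Chuk, the kinase IKKα, rose by 0.36 in IH (edgeR adjusted p = 0.0238, lost without control 1, 2, 4, IH 1 or IH 5, up to 0.0708) and by 0.35 in SH (edgeR adjusted p = 0.0184, lost without control 1 or 4, up to 0.0541). Nfkbib, the inhibitor IκBβ, fell by 0.33 in SH (edgeR adjusted p = 0.0275, lost without control 1, 3, 4, SH 2 or SH 4, up to 0.0938). These calls too were lost with GC content and length trends taken out, at 0.21 in IH and 0.19 in SH for Chuk (edgeR adjusted p = 0.138 and 0.175) and -0.12 for Nfkbib (edgeR adjusted p = 0.503). With Nfkbia included, the 8 tested genes lay at a median of -0.21 in IH and -0.16 in SH on the log2 scale.

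Relatives of the members by family had 11 of 31 genes in the table, of which 1 was lower in IH and 4 were lower in SH, beside 4.85% and 10.5% of all genes tested, with none higher. Fkbp1b, an immunophilin of calcium release channels, fell by 0.42 in IH (edgeR adjusted p = 0.0105) and by 0.34 in SH (edgeR adjusted p = 0.0175, lost without control 4, 0.0578). In SH, Fkbp8, an immunophilin of mitochondria, fell by 0.36 (edgeR adjusted p = 0.00160). Its log2 fold change ran from -0.41 to -0.21 over 25 alternatives, of which 24 kept the call. Fkbp3, a nuclear immunophilin, fell by 0.27 in SH (edgeR adjusted p = 0.0171, lost without control 3, 0.0527), and Nfkbib is given above. With the same trends taken out, Fkbp1b was no longer called in IH (-0.27, edgeR adjusted p = 0.0784) or in SH (-0.16, edgeR adjusted p = 0.284).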

How the data were processed

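Hippocampal poly(A) RNA of 14 mice was sequenced as paired reads. The table deposited by the authors gives estimated counts per gene (fastp 0.23.4, HISAT2 2.2.1 on GRCm39, StringTie 2.2.1), without normalization, for protein-coding genes above a count of 40 in each group whose processed signal differed from control. Fractional values, found in 10 genes, were rounded. All 14 columns were used and no library was a duplicate.

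Genes whose mean count reached 40 in each of the groups were tested with edgeR 4.0.16 (R 4.3.3), with TMM scaling and Benjamini-Hochberg adjustment, after a check on simulated data. For normalized counts, each library was divided by its TMM-scaled size over the average size. Intervals are 95% intervals from the standard error. Nothing was pooled, and p-values measure the spread between mice, taken as 1 library each.

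The members and the lists were chosen with earlier results of these data known. All members were named, from the pathway lists every gene with an adjusted p under 0.05, and of cell type markers those that moved beside a result. Correlations used log2 CPM with a pseudocount of 2 and 100000 permutations. Alternatives were DESeq2 1.42.0, other scalings and filters, a fit of 2 groups, a replicate block, removal of GC content and length trends, the study's scaling (80th percentile, low values set to log2 of 32) with limma 3.58.1, and leaving out each library. Symbols were matched to GENCODE for 7707 genes directly and 16 by synonym.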

Additional observations from a re-analysis of the deposited data

Results flagged for a closer look

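In groups of 4 or 5 libraries, 6 of 87 groups of named genes had 1 library far from the rest by Dixon's test, which chance gives for about 1 in 20 groups. Tsc22d3 was 1387 normalized counts in SH 2, where the next highest SH library was at 1063. Errfi1 was 1171 in SH 4, next to 941. Nr3c1 was 2576 in IH 5, next to 2170. Dusp1 was 403 in control 1, where the next lowest control library was at 563. Nfkbib was 267.4 in SH 2, where the next lowest SH library was at 279.9. Map3k6 was 95.3 in SH 2, next to 48.0. The library SH 2 is in 3 of these 6, and it was also 1 of the 6 libraries rich in choroid plexus markers.

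IH and SH differed from each other, by the test of the difference itself, for Tsc22d3 (log2 fold change 0.44, edgeR adjusted p = 0.0417, 4 of 5 IH libraries above every SH library) and for Map3k6 (1.10, edgeR adjusted p = 0.0464, 3 of 5 above every SH library).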

How the results depend on the processing

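Over 54 values of single genes and up to 25 alternatives, 1139 of 1348 values kept direction and side of the threshold, 187 lost the call and 22 changed sign, all 22 for members that were not called. Map3k6 had no value under DESeq2 and in the 8 libraries with few choroid plexus transcripts. The cause of the shifts was not tested.

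The numbers of genes called (802 in IH and 1514 in SH against control, 174 between IH and SH) were 407 and 478 with GC content and length trends taken out, 332 and 444 with the replicate block and these trends removed, and 47, 26 and 0 in the 8 libraries, an alternative added after the data were seen. Between IH and SH they were 300 under DESeq2 and 64 with only those 2 groups in the fit. Without any 1 library they were 386 to 979, 906 to 1743 and 88 to 178, lowest in IH without control 2, in SH without control 1 and between IH and SH without SH 4. The share of higher calls in SH, 49.2% in the first fit, was 41.3% under scaling by the 80th percentile, 39.7% under the study's processing with limma 57.2% under scaling by library total and 7.69% (2 of 26) in the 8 libraries. In IH it was 55.6% at first, 64.5% under library total and 45% and 42.2% with trends removed, and between IH and SH 62.1% at first and 48.8% and 50.3% with trends removed.

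The number of members called was 1 to 1 without any 1 library in IH, and 0 in the 8 libraries. In SH it was 0 to 1, and 0 with only 2 groups, with trends removed, with block and trends, with limma and in the 8 libraries. Between IH and SH it was 0 to 1, and 0 under the same alternatives and with the replicate block. Pairs of members varying together numbered 0 to 5 without any 1 library.

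Over 13 pairs of same-numbered libraries, r of their deviations ran from -0.296 to 0.466, with 6 above 0.1. Whether such libraries deviated together was not tested. The labels name no pairing, so replicate numbers were not treated as pairs in the main fit. With the replicate block, 738, 1443 and 148 genes were called and Tsc22d3 between IH and SH had an adjusted p of 0.0665.

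Values that changed sign lay between -0.22 and 0.097 on the log2 scale. Without any 1 library, Sult1a1 in IH ran from -0.015 to 0.20 (-0.015 without IH 1 and without IH 4), and it was -0.17 in the 8 libraries. Nr3c1 in IH was -0.00011 with the replicate block, -0.097 with trends removed, -0.15 with both and -0.018 (without IH 5) to 0.077 without any 1 library, in SH -0.037 and -0.082 with trends removed, without and with the block, and between IH and SH 0.019 in the 8 libraries. Pdk4 in SH was -0.083 and -0.068 with trends removed, without and with the block, and -0.011 (without control 3) to 0.12 without any 1 library. Sgk1 between IH and SH ran from -0.11 (without IH 4) to 0.23, with -0.021 without IH 3, -0.096 without SH 3 and -0.041 without SH 5, and was -0.22 in the 8 libraries. Nfkbia between IH and SH was 0.014 with limma and ran from -0.12 to 0.097 (without SH 4), with 0.0061 without IH 1 and 0.0087 without SH 5.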

Other observations

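The genes below were chosen after their values were seen. The library IH 3 had the highest count of the IH group for Tsc22d3 (1852 normalized counts), Plin4 (372), Fam107a (13230), Map3k6 (167) and Hif3a (414), a hypoxia-inducible factor subunit that glucocorticoids also induce, and IH 2 had the lowest for Tsc22d3 (1291), Plin4 (130), Fam107a (10141) and Hif3a (171). In SH, Tsc22d3 (1387), Fam107a (9803) and Map3k6 (95.3) were highest in SH 2, where Plin4 (133) was lowest. Over all 14 libraries, within groups, the genes most like Tsc22d3 included C1d (r = 0.91) and Fam107a (r = 0.82). Those most like Errfi1 included the transcription factors Cebpa (r = 0.86) and Cebpb (r = 0.84), and those most like Nfkbia included Arrdc2 (r = 0.87). Those most like Sult1a1 included Tgfbi (r = 0.83) and Vasn (r = 0.83). These correlations are descriptions without a test over libraries that share depth and tissue content.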
